A study of Homo sapiens with 2 samples.

Results

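The genes of cell death control were followed between MAEL WT and MAEL KO cells of PLC8024, an established human HCC cell line. The set holds 38 genes chosen by symbol, namely the BCL2 family, the caspases with their adaptors, the apoptosome, the inhibitors of apoptosis and the gasdermins GSDMD and GSDME. All 38 were found among the 58735 genes of the deposited count table, on 39 rows, since DIABLO has 2 rows. The MAEL WT cells are labelled wildtype and without treatment, and the MAEL KO cells were made with Cas9 and a guide RNA against MAEL. According to the methods, sorted cells were grown as single clones, so a MAEL KO line is a clone and a difference between clone and parental cells cannot be told apart from the knockout. Each group is 1 library of total RNA, with 19904136 counts for MAEL WT and 20833332 for MAEL KO. The study also asked how MAEL changes cell death under sorafenib, a kinase inhibitor used against HCC, but the labels of these libraries name no drug.

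With 1 library per group there is no replicate error, no test and no p-value. Read counts were scaled by TMM factors, which align the bulk of all genes between libraries. A log2 change here is positive where a gene was higher in MAEL KO. It compares normalized counts after 1 was added to each, and genes that reached 10 counts in either library are called tested genes. The 95% interval is the exact Clopper-Pearson interval of the MAEL KO share of a gene's counts, turned into a log2 ratio, and it covers counting error only. Levels of different genes are compared as the authors' FPKM, which divides by gene length. In bulk RNA, fewer cells of a type and less RNA per cell cannot be told apart.

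The targeted gene could not check the labels, because MAEL had 1 count in MAEL WT and 0 in MAEL KO. The paper describes PLC8024 as the line with the highest MAEL levels. It shows the knockout by Western blot and a DNA mismatch assay. The MAEL WT library held almost no MAEL RNA that could be lost. All 8 hepatocyte markers examined were above 3 counts in both libraries, and their summed level was 1643 FPKM in MAEL WT and 4858 FPKM in MAEL KO. ALB differed most, with 59 counts in MAEL WT and 8550 in MAEL KO. The leukocyte markers PTPRC and CD3E had 3 and 0 counts in MAEL WT and none in MAEL KO. Of the 5 leukocyte markers, 2 were above 3 counts in each library, as were 2 of 4 endothelial and 2 of 5 fibroblast markers. The summed FPKM of the fibroblast markers was 1.27 in MAEL WT and 0.278 in MAEL KO, that of the endothelial markers 2.09 and 2.79, and that of the leukocyte markers 33.1 and 22.2, the last almost all from LYZ. The part of these differences in the results below was not tested.

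Apoptosis through mitochondria is decided by the BCL2 family. The pore formers BAX and BAK1 open the outer mitochondrial membrane, the anti-apoptotic proteins hold them back, and the BH3-only proteins free or activate them. Cytochrome c then leaves the mitochondrion and builds the apoptosome with APAF1, which activates caspase-9. Death receptors at the cell surface reach the caspases by another way, through FADD and caspase-8, and hepatocytes link both ways through BID. XIAP and its relatives restrain caspases, and gasdermins, once cut, form pores in the plasma membrane.

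Of the 38 members, 36 reached 10 counts in 1 library and 32 reached 100. Of the 36, 6 were lower in MAEL KO past a log2 change of 1, which is 16.7% against 16.5% of all 17887 tested genes. Past the same value, 2 were higher, or 5.56% against 10.2% of all tested genes. These backgrounds are 2951 lower and 1827 higher genes, which scaling by total counts turned into 4017 and 1174. Past a log2 change of 2, the fold used in the study, 2 were lower and 1 was higher, against backgrounds of 5.64% and 2.16%. The 6 lower members were the BH3-only genes PMAIP1, HRK, BBC3 and BIK and the anti-apoptotic genes BCL2A1 and BCL2L10, and the 2 higher members were GSDME and CASP2. The shares past 2 were 5.56% lower and 2.78% higher, so on the lower side at both folds and on the higher side past 2 the members lay near the background, and on the higher side past 1 below it. The median was -0.18, beside -0.04 for all tested genes. Counting error was small beside most log2 changes of the 36 members, since 18 intervals lay wholly below 0 and 14 wholly above. Over all genes, 34.7% and 34.8% did so. Under an assumed coefficient of variation of 0.4 in place of the missing replicates, edgeR's exact test on these libraries left 0 of the 36 members, and 38 lower and 15 higher among all genes, at an adjusted p of 0.01.

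**Figure D1:**
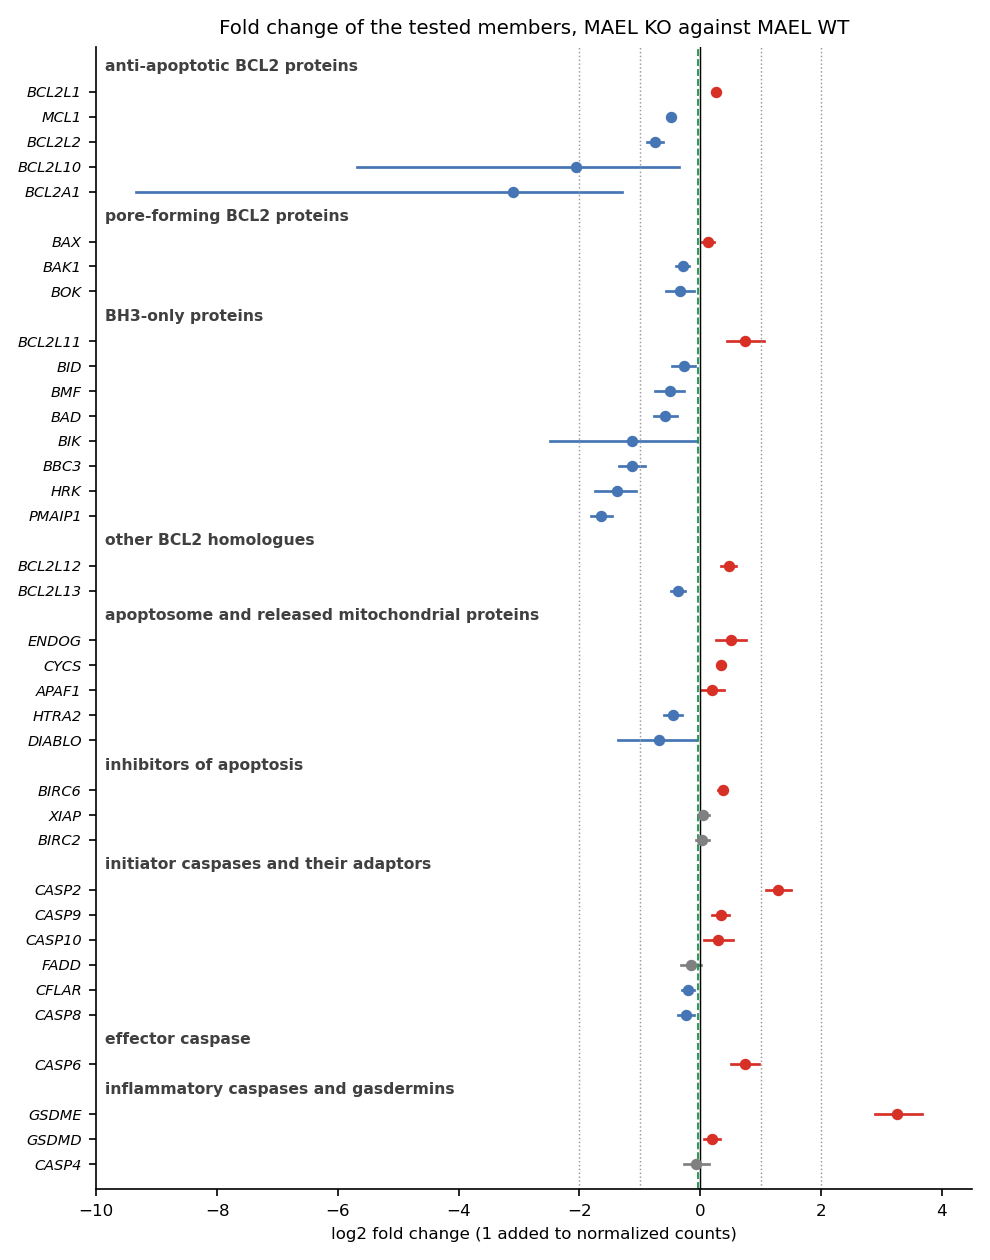
Log2 change between the libraries (positive where higher in MAEL KO) for the 36 tested members, grouped by role. Points are fold changes with 1 added to normalized counts, bars are 95% counting intervals (1 library per condition, no replicate error), blue marks intervals below 0, red above 0 and grey those that include 0. Dotted lines mark log2 values of 1 and 2 in each direction and the dashed green line is the median of all tested genes. GSDME at 3.25 and CASP2 at 1.29 lie farthest to the right, and 7 of 8 BH3-only genes lie left of 0.

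The anti-apoptotic transcripts were carried by MCL1 and BCL2L1 in both libraries. MCL1, a short-lived protein that neutralizes BAK1 and several BH3-only proteins, had the highest FPKM of all members, at 146 in MAEL WT and 104 in MAEL KO. Its counts went from 13931 to 8648 (log2 change -0.48, 95% interval -0.52 to -0.44). BCL2L1, which encodes BCL-XL, the other main survival protein of hepatocytes, went from 3239 to 3362 counts (log2 change 0.26, 95% interval 0.19 to 0.33). Scaled by total counts alone, BCL2L1 was at -0.01 and the median over all tested genes at -0.31. MCL1 made up 70.5% of the summed FPKM of the 6 anti-apoptotic genes in MAEL WT and 62.5% in MAEL KO, and BCL2L1 made up 21.6% and 32.0%. This share does not depend on how the libraries are scaled.

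BCL2L2, which encodes BCL-W, was the other well-counted gene of this role. It went from 1386 to 712 counts, or from 15.1 to 8.97 FPKM (log2 change -0.75, 95% interval -0.88 to -0.62). The remaining 3 genes were at the edge of detection. BCL2A1, an NF-κB target known from blood cells, had 18 and 1 counts (log2 change -3.10, 95% interval -9.34 to -1.30). BCL2L10 had 13 and 2 counts, at -2.05 (95% interval -5.68 to -0.35). Both passed the count filter only through MAEL WT, and no member past 2 on the lower side had more than 18 counts. BCL2 itself, the founding gene of the family, had 8 counts in MAEL WT and 9 in MAEL KO and was not tested, and at 0.031 and 0.040 FPKM it was far below MCL1 and BCL2L1.

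**Figure D2:**
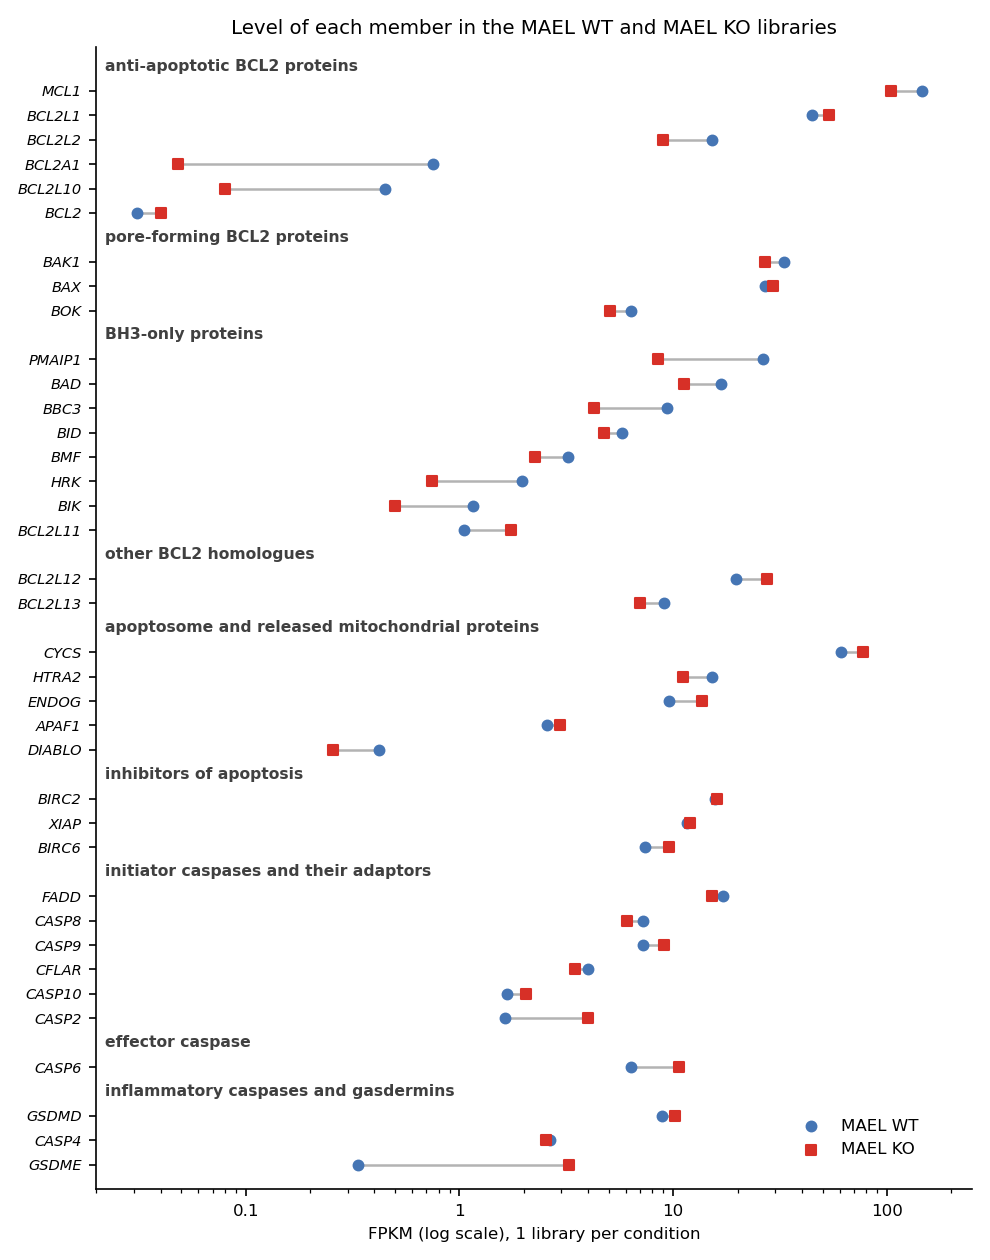
FPKM of 37 members in the MAEL WT library (blue circles) and the MAEL KO library (red squares) on a log scale, grouped by role, with a grey line joining the values of a gene. DIABLO is shown for its longer row, and CASP1, at 0 in both, is left out. MCL1, CYCS and BCL2L1 are the highest in both libraries, and GSDME has the longest line of the genes that were higher in MAEL KO. BCL2A1, at 0.756 and 0.048 FPKM, has a longer line in the other direction.

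The pore-forming genes differed little. BAX went from 1520 to 1435 counts, at 26.9 and 29.3 FPKM (log2 change 0.13, 95% interval 0.02 to 0.23), and stood at -0.15 with total counts. BAK1 went from 1602 to 1130 counts, at 33.1 and 26.9 FPKM (log2 change -0.29, 95% interval -0.40 to -0.18). BAK1 was thus above BAX per length in MAEL WT and below it in MAEL KO. BOK, a relative that is active without the others and is controlled by protein turnover, went from 377 to 259 counts (log2 change -0.33, 95% interval -0.57 to -0.10).

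The BH3-only genes, the largest role group, also had most members on the lower side. Of 8, 7 were below 0 with intervals that excluded 0, 4 were lower past a log2 value of 1 and 1 was above 0, and the median was -0.85 (range -1.64 to 0.74). Without BIK, which had few counts, the median of the 7 genes with at least 100 counts in 1 library was -0.58. Over all tested genes, 34.7% had intervals wholly below 0 and 16.5% were lower past 1. The lower side was not particular to this role. Of the 5 tested anti-apoptotic genes, 4 had intervals wholly below 0 and 2 were lower past 1, with a median of -0.75 (range -3.10 to 0.26). For the 3 anti-apoptotic genes with at least 100 counts in 1 library the median was -0.48. The summed FPKM of the 8 BH3-only genes was 65.8 in MAEL WT and 34.0 in MAEL KO. PMAIP1, which encodes NOXA, the partner that binds MCL1 and promotes its turnover, led the group in MAEL WT. It went from 1293 to 359 counts and from 26.4 to 8.47 FPKM (log2 change -1.64, 95% interval -1.81 to -1.47), or 3.11-fold lower. Among the 39 rows PMAIP1 ranked 6 by FPKM in MAEL WT and 18 in MAEL KO. BBC3, which encodes PUMA, a protein that binds every anti-apoptotic protein, went from 654 to 258 counts (log2 change -1.13, 95% interval -1.35 to -0.92). HRK, which binds BCL-XL and is best known from neurons, went from 295 to 97 counts (log2 change -1.39, 95% interval -1.74 to -1.06). All 3 were above 90 counts in both libraries, so counting error leaves their direction clear, but replicate error is unknown.

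Of the other BH3-only genes, 3 were lower by less than 1, BIK was lower past 1 on few counts and BCL2L11 was higher. BAD, whose protein is switched off by AKT phosphorylation, went from 627 to 363 counts (log2 change -0.58), BMF, tied to loss of attachment, from 383 to 233 (-0.50), and BID, the link from caspase-8 to mitochondria, from 563 to 402 (-0.28). BAD was the highest BH3-only gene in MAEL KO, at 11.2 FPKM. BIK had 24 and 9 counts (log2 change -1.13, 95% interval -2.49 to -0.05), which is too few for a firm size. BCL2L11, which encodes BIM, an activator of BAX and BAK1, was the only one above 0. It went from 153 to 221 counts and from 1.05 to 1.75 FPKM (log2 change 0.74, 95% interval 0.44 to 1.05). It shares 10.9% of its exonic bases with MIR4435-2HG on the opposite strand, which had 224 and 293 counts (0.60), and strand use in counting is not given.

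Ratios of a pair of genes within a library are free of the scaling between libraries, and the pairs given here were chosen after the values had been seen. PMAIP1 stood at 18.2% of the MCL1 FPKM in MAEL WT and at 8.12% in MAEL KO, a log2 change of the ratio of -1.16 (95% exact conditional interval -1.34 to -0.99). BBC3 over MCL1 changed by -0.65 (95% interval -0.87 to -0.44) and HRK over MCL1 by -0.92 (95% interval -1.27 to -0.58). PMAIP1, BBC3 and HRK were thus lower relative to MCL1 too, while BMF over MCL1 changed by -0.03 with an interval from -0.27 to 0.21. BCL2L11 over MCL1 went the other way, by 1.22 (95% interval 0.91 to 1.53). MCL1 over BCL2L1 went from 3.26 to 1.95 in FPKM, a log2 change of -0.74 (95% interval -0.82 to -0.66). BAX over BCL2L1 changed by -0.14 (95% interval -0.26 to -0.01), and BAK1 over BCL2L1 by -0.56 (95% interval -0.69 to -0.43).

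Promoter sequence is shown for the 3 BH3-only genes that were lower past 1 with at least 100 counts in 1 library, so that motifs near their starts can be read. Given are the 250 bases before the RefSeq start of each gene on GRCh38.p14, 5′ to 3′ on the gene's strand, with motif matches in capitals. PMAIP1 is at chr18:59899746-59899995 on the plus strand, BBC3 at chr19:47232668-47232917 and HRK at chr12:116881442-116881691, both on the minus strand.
PMAIP1: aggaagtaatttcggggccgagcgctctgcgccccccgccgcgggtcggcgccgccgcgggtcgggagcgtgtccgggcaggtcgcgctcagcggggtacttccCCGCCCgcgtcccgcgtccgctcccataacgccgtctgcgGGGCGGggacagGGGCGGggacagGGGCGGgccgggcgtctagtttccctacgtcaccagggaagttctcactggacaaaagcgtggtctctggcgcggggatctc
BBC3: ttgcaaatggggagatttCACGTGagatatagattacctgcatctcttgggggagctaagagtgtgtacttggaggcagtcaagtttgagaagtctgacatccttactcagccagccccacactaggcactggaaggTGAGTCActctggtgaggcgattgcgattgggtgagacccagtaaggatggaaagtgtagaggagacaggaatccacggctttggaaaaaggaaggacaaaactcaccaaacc
HRK: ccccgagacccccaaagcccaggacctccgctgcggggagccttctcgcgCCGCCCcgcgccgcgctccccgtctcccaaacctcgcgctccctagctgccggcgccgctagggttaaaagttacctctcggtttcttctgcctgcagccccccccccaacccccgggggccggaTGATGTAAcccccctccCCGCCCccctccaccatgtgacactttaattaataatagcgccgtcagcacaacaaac
Searched on both strands were the CRE (TGACGTCA), the C/EBP-ATF core (TGATGNAA), the E-box (CACGTG), the GC box (GGGCGG), the AP-1 site (TGACTCA), the E2F forms TTTCGCGC, TTTGGCGC and TTTCCCGC, and the TATA box (TATAAA). PMAIP1 held 4 GC boxes, which 42.6% of all 35116 RefSeq windows of this length hold at least once. HRK held 2 GC boxes and a C/EBP-ATF core, TGATGTAA, from 75 to 68 bases before the start, and 3.14% of all windows hold such a core. BBC3 held an AP-1 site from 113 to 107 bases before the start (4.2% of all windows) and an E-box (6.34%). None of the 3 windows held the exact CRE letters TGACGTCA (1.65%), and other forms of the CRE were not searched. No searched motif was common to them all. The start in the deposited table lies 48 bases from the RefSeq start for PMAIP1, 99 for BBC3 and 0 for HRK.

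Among the proteins that act after the pore opens, CYCS, which encodes cytochrome c, was by far the highest, at 61.0 FPKM in MAEL WT and 77.6 in MAEL KO. It went from 5947 to 6555 counts (log2 change 0.35, 95% interval 0.30 to 0.40). APAF1, the scaffold of the apoptosome, had 446 and 443 counts (log2 change 0.20, 95% interval 0.01 to 0.39), and stood at -0.08 with total counts. APAF1 was thus among the members with the smallest differences. ENDOG, a mitochondrial nuclease, went from 246 to 304 counts (log2 change 0.51, 95% interval 0.27 to 0.76). HTRA2, a protease that removes inhibitors of apoptosis, went from 994 to 629 counts (log2 change -0.45, 95% interval -0.60 to -0.30).

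DIABLO, which encodes SMAC, could not be measured well. Its longer row had 62 counts in MAEL WT and 33 in MAEL KO (log2 change -0.68, 95% interval -1.35 to -0.07), and its shorter row had 4 in each. The 2 rows overlap, and 85.3% of the exonic bases of the shorter row also belong to the longer, so reads there fit both genes. featureCounts leaves out such reads unless told otherwise, and the setting is not given in the sources used here.

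The 3 inhibitors of apoptosis among the members differed little between the libraries. BIRC3 and BIRC5, which are not members, differed more and are given below. XIAP, which blocks caspases directly, had 2288 and 2052 counts (log2 change 0.05, 95% interval -0.03 to 0.14). BIRC2, a ubiquitin ligase of TNF receptor signalling, had 1559 and 1378 counts (log2 change 0.03, 95% interval -0.07 to 0.14). These 2 were among the 4 members whose counting interval included 0, beside FADD and CASP4, and with total counts they were at -0.22 and -0.24. BIRC6, a giant ubiquitin ligase, went from 2897 to 3234 counts (log2 change 0.37, 95% interval 0.30 to 0.44). HTRA2 over XIAP changed by -0.50 (95% interval -0.67 to -0.33).

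The genes of the death receptor platform also stayed close. FADD, the adaptor, had 685 and 532 counts (log2 change -0.15, 95% interval -0.32 to 0.01). CASP8, CASP10 and CFLAR lie side by side on chromosome 2, with 4.04 kb between CASP10 and CASP8 and 6.19 kb between CFLAR and CASP10. CASP8 went from 1144 to 837 counts (log2 change -0.24) and CFLAR, which encodes the caspase-8 inhibitor FLIP, from 1964 to 1479 (-0.20). CASP10 went from 278 to 296 counts (0.30), so the 3 neighbours did not share a direction. CASP8 over CFLAR was at 1.81 in MAEL WT and 1.76 in MAEL KO in FPKM, a log2 change of -0.04 (95% interval -0.21 to 0.12). The level of this ratio rests on the deposited gene lengths, 22529 bases for CFLAR and 7243 for CASP8, as CFLAR had more counts in both libraries. It therefore does not show which transcript was more abundant. CFLAR also shares 12.0% of its exonic bases with other genes.

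CASP2 differed most among the caspases. Caspase-2 is tied to the response to extra centrosomes and, in the liver, to lipid stress. CASP2 went from 286 to 607 counts and from 1.63 to 3.99 FPKM (log2 change 1.29, 95% interval 1.091 to 1.504), or 2.45-fold higher. CASP9, the apoptosome caspase, went from 830 to 906 counts (log2 change 0.34, 95% interval 0.20 to 0.47). CASP2 over CASP9 changed by 0.96 (95% interval 0.71 to 1.21). CASP6, an effector that cuts lamins, went from 271 to 391 counts and from 6.38 to 10.6 FPKM (log2 change 0.74, 95% interval 0.51 to 0.97).

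GSDME had the largest difference of all tested members on the higher side. Once cut, the protein forms pores that turn apoptosis into lytic death, and the gene is known to be silenced by promoter methylation in many tumours. GSDME had 65 counts in MAEL WT and 543 in MAEL KO, or 0.336 and 3.24 FPKM. The log2 change was 3.25 (95% interval 2.90 to 3.67), or 9.52-fold, and it was above 2 under all 5 other scalings and added counts. GSDMD, the substrate of inflammatory caspases, had 997 and 989 counts (log2 change 0.20, 95% interval 0.07 to 0.33), and stood at -0.08 with total counts. GSDME therefore stood at 3.77% of the GSDMD level in MAEL WT and at 31.8% in MAEL KO. CASP4, which senses bacterial lipopolysaccharide, had 423 and 350 counts (log2 change -0.06, 95% interval -0.27 to 0.14), and CASP1 had 0 in both libraries, under the floor of 3 counts (0.151 CPM in MAEL WT and 0.144 CPM in MAEL KO).

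The promoter window of GSDME, at chr7:24757465-24757714 on the minus strand of GRCh38.p14, is shown because of its CpG content, which is what methylation acts on. Capitals mark GC boxes.
GSDME: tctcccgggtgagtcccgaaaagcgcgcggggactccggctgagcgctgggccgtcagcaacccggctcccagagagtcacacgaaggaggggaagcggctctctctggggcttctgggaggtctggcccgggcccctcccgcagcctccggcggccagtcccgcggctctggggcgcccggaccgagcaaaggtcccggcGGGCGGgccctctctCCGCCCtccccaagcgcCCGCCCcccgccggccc
It holds 28 CpG dinucleotides and 76.4% GC, with 3 GC boxes, where the median of all windows is 11 CpG dinucleotides. PMAIP1 and HRK hold 36 and 22, and BBC3 4. Methylation was not measured in these libraries, and the start in the deposited table lies 649 bases from the RefSeq start.

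BCL2L12 and BCL2L13 resemble the family but act apart from it, BCL2L13 as a receptor for mitophagy. BCL2L12 went from 958 to 1151 counts (log2 change 0.47) and BCL2L13 from 1512 to 1015 (-0.36). BCL2L13 lies 3.28 kb from BID on chromosome 22, and both were lower in MAEL KO. BCL2L12 shares 33.1% of its exonic bases with IRF3 on the opposite strand, which went from 2725 to 1513 counts.

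Shared exons limit some of these values. Of the 38 members, 19 have exons that overlap another gene in GENCODE 29 and 10 share over 10% of their exonic bases. FADD shares 54.9% with an antisense gene at 0 counts. BCL2L1 shares 43.0% with the antisense RNA ABALON (243 and 273 counts), ENDOG 39.2% with SPOUT1 (685 and 941) and BAD 23.7% with GPR137 (736 and 636). BCL2L2 shares 19.4% with the read-through gene BCL2L2-PABPN1, which had 20 and 15 counts, and 4.92% with PPP1R3E on the opposite strand (400 and 265). HTRA2 shares 36.9%, with AUP1 (4079 and 4044 counts) and LOXL3 (34 and 41), both on the opposite strand. Whether strand was used in counting is not given in the sources used here, so reads of overlapping genes may be mixed or left out. GSDME, PMAIP1, HRK and CASP2 overlap no other exon, and BBC3 overlaps only 2 miRNA genes, both at 0 counts.

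Neighbouring genes were read beside the 5 members past 1 with at least 100 counts. Within 500 kb of the GSDME start, 4 other genes were tested, from -0.36 to 0.54, and 1 of them was CYCS. The 7 tested neighbours of CASP2 had a median of 0.04, with 1 lower and none higher past 1. The differences of GSDME and CASP2 were thus not seen in the genes next to them. Of 11 neighbours of HRK, 6 were lower past 1, with a median of -1.20, and 5 of those 6 had at most 51 counts in MAEL WT. Of 24 neighbours of BBC3, 7 were lower past 1 and none higher, with a median of -0.55. The medians of chromosomes 12 and 19 were -0.07 and -0.10. Of all tested genes, 16.5% were lower past 1 and 10.2% higher. PMAIP1 had no tested neighbour in this window.

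**Figure D3:**
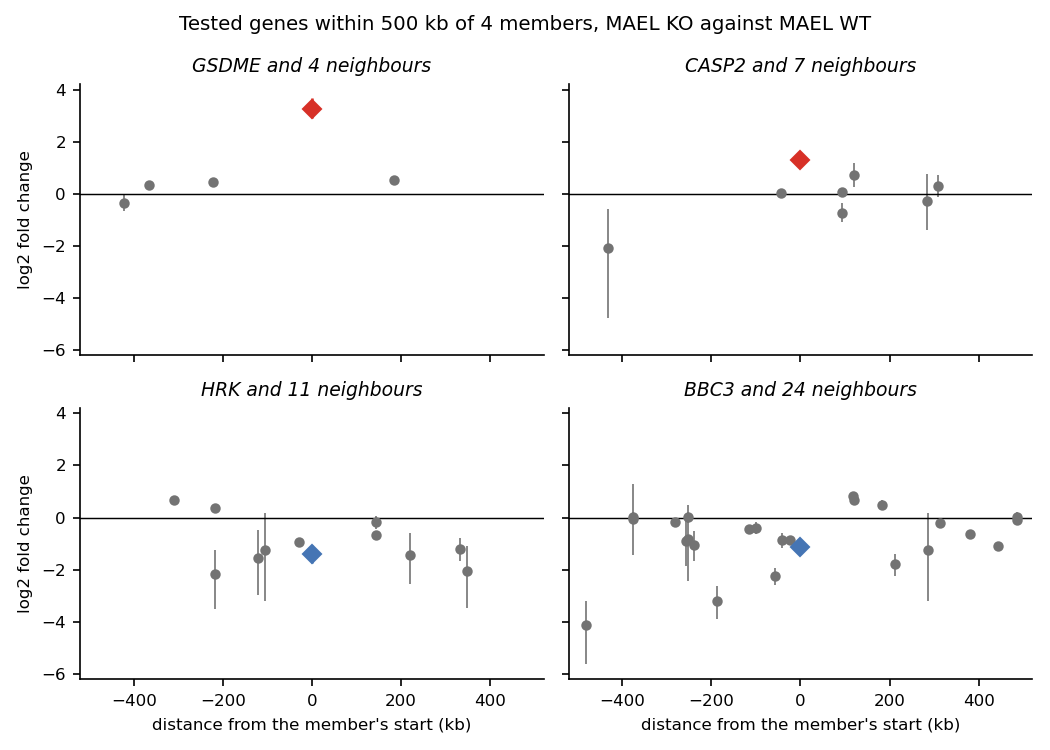
Log2 change between the libraries (positive where higher in MAEL KO) for tested genes by distance in kb between their start and that of GSDME, CASP2, HRK or BBC3, positive in the direction of transcription. Diamonds are the named members, grey points their neighbours, and bars 95% counting intervals. GSDME at 3.25 stands above its 4 neighbours, which reach 0.54, whereas HRK at -1.39 lies among its neighbours. Those lower than HRK had at most 51 counts in MAEL WT, and the better counted ones lie above it.

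Other genes of the pathway were taken from lists written from textbook knowledge. Among 12 tested genes for death ligands, receptors and adaptors, 4 were lower past 1 and 2 higher (33.3% and 16.7%, beside 16.5% and 10.2% of all tested genes), with a median of -0.33. TNFRSF10B, which encodes the TRAIL receptor DR5, went from 7425 to 2554 counts (log2 change -1.33, 95% interval -1.39 to -1.26), TNFRSF25 from 84 to 23 (-1.62) and TNFRSF10C from 39 to 14 (-1.21). The higher genes were TNFSF10, which encodes TRAIL itself, from 97 to 274 (1.70), and the decoy receptor gene TNFRSF10D from 481 to 1162 (1.48), followed by RIPK1 from 922 to 1086 (0.45). The 2 decoy receptor genes, TNFRSF10C and TNFRSF10D, thus went opposite ways, and TNFRSF10A, which encodes the other signalling TRAIL receptor, DR4, had 965 and 754 counts (-0.15, 95% interval -0.28 to -0.01). FAS and FASLG had 0 counts in both libraries.

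Among 9 tested necroptosis and inflammasome genes, 4 were lower past 1 and 1 was higher (44.4% and 11.1%, beside 16.5% and 10.2% of all tested genes), with a median of -0.72. NLRP1, an inflammasome sensor, had 122 and 4 counts (log2 change -4.43, 95% interval -6.62 to -3.33), GSDMB, another gasdermin, 1484 and 258 (-2.31, 95% interval -2.51 to -2.12), and NLRC4 44 and 15 (-1.29). The gasdermins therefore did not move together, since GSDMB was lower and GSDME higher. PYCARD, the inflammasome adaptor, had 0 and 11 counts, at least 4.24-fold higher against 3 counts. RIPK3 had 1 and 0 counts, and MLKL, which acts after it, had 425 and 278.

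Of 7 other caspases and inhibitors of apoptosis, 3 were tested, 1 was higher past 1 and none was lower (median -0.58, and 0.56 over 5 genes with no count filter). That is 33.3% higher and 0% lower of only 3 genes, beside 10.2% and 16.5% of all tested genes. BIRC3 went from 1070 to 619 counts (log2 change -0.58) and AVEN, which binds APAF1, from 662 to 374 (-0.61). BIRC5, which encodes survivin, an inhibitor that also works in mitosis, went from 669 to 2341 (2.02, 95% interval 1.89 to 2.14).

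A transcription programme known to act on BH3-only genes, the stress response of ATF4 and CHOP, was set beside them. Of 13 ATF4 and CHOP genes, 11 were lower past 1, 9 of them past 2, and 1 was higher, with a median of -2.23. Over all tested genes, 16.5% were lower past 1 and 5.64% past 2. CHAC1 went from 2016 to 131 counts (log2 change -3.72), NUPR1 from 6923 to 534 (-3.48) and SESN2 from 3476 to 464 (-2.69), while ATF4 itself was at -0.24 and DDIT3, which encodes CHOP, went from 1122 to 242 counts. ERO1A, an ER oxidase, was the only one higher, from 4423 to 14859 (1.96). PMAIP1 and BBC3, which are known to answer to this programme, were lower too, and whether it had a part in this was not tested.

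**Figure D4:**
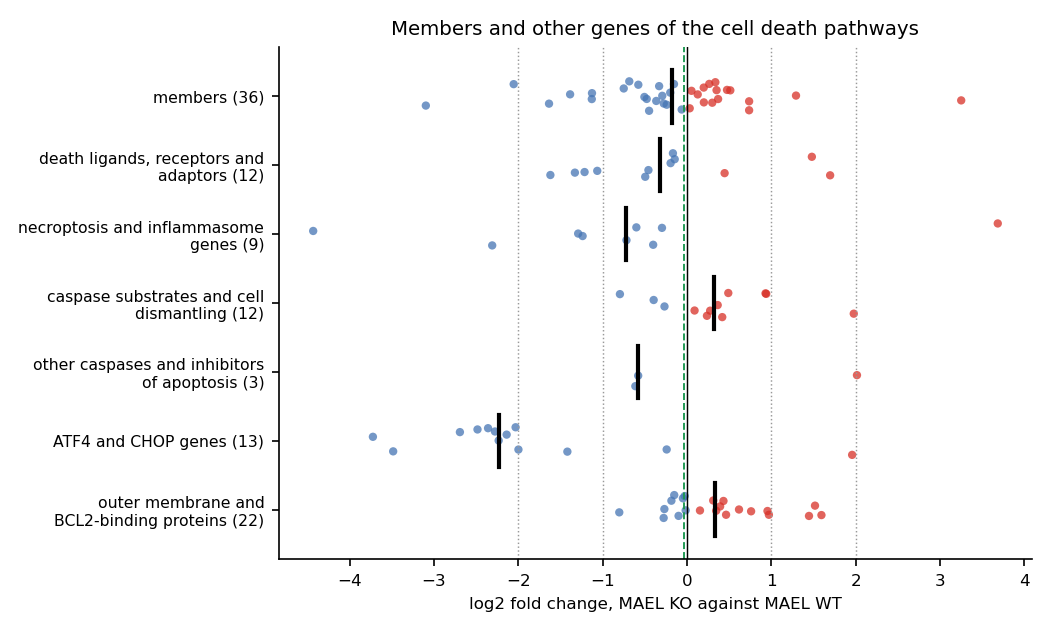
Log2 change between the libraries (positive where higher in MAEL KO) for the 36 tested members and for the tested genes of 6 other lists, with the number of genes in parentheses. Each point is a gene, blue below 0 and red above 0, black bars are medians, dotted lines mark log2 values of 1 and 2 in each direction and the dashed green line is the median of all tested genes at -0.04. The ATF4 and CHOP genes have the lowest median, -2.23. The far right point, PYCARD, rests on 0 counts in MAEL WT and moves with the added count.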

How the data were processed

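Total RNA of PLC8024 was sequenced as 1 MAEL WT and 1 MAEL KO library. The submitters' processing notes name HISAT2 2.0.5, featureCounts 1.5.0-p3 and hg19, but the starts and ends of all 58735 genes in the deposited tables equal those of GENCODE 29 on GRCh38, which is used here. The authors deposited raw read counts and FPKM values. The FPKM values are counts per kilobase over library sizes of 1.10 and 0.91 times the count totals of MAEL WT and MAEL KO, and are thus already rescaled.

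Scaling used TMM factors of edgeR 4.0.16 over all genes (1.10 and 0.909), in R 4.3.3, with size factors of DESeq2 1.42.0 as an alternative. Other steps ran on SciPy 1.17.1, pandas 2.3.3, NumPy 2.4.6 and matplotlib 3.10.9 under Python 3.11.15. Counting error is all that intervals and floors cover, since no molecular identifiers are described and several reads can come from 1 molecule. The code for the fold changes and intervals was run on simulated counts. These held counting error only, so they say nothing about replicate or clone variation. Promoter windows came from RefSeq, where 31 of 38 symbols matched, 15 with several entries.

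Members, roles and gene lists were chosen with earlier results of these data known. Every member is accounted for, and of each other list up to 3 genes at each end are named, with a few more chosen after their values were seen. Other settings were DESeq2 size factors, total counts, the FPKM ratio with 0.01 added, added counts of 0.1 and 5, no count filter, at least 100 counts, edgeR's exact test assuming a biological coefficient of variation of 0.4 or 0.1 (adjusted p of 0.01), and folds whose interval also passes. Such a test compares libraries, not conditions. FPKM values were also rescaled to TPM. Some genes of the pathway, and a list built on them, are not reported here.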

Additional observations from a re-analysis of the deposited data

How the results depend on the processing

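No paired analysis was possible because each group holds 1 library, and for the same reason no library could be left out. Of 180 values of the 36 tested members under 5 other scalings or added counts, 151 stayed within their counting interval. The other 29 all moved with total counts, which shift every gene downward, and of these BCL2L1, BAX, APAF1, XIAP, BIRC2 and GSDMD changed sign. Total counts also moved the medians of pore-forming genes to -0.57, inhibitors of apoptosis to -0.22, CASP6 to 0.46, the inflammatory caspases and gasdermins to -0.077 and the other caspases and inhibitors to -0.85. They gave 1 lower gene among caspase substrates and 1 among outer membrane genes.

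Of the 6 lower members, 3 were left with at least 100 counts (PMAIP1, HRK and BBC3), and 3 where the interval also had to pass 1 (PMAIP1, HRK and BCL2A1). The 2 lower members past 2 became 0 under both settings and with 5 added, and 1 in the exact test of edgeR when the assumed variation was 0.1. At 0.4 that test left 0 members in every direction and at both folds, where 0.1 left 2 higher and 4 lower past 1. Over all genes past 1, the 1827 higher and 2951 lower became 1110 and 1101 with at least 100 counts, 973 and 1262 with the interval also past, and 5304 and 5745 with no filter. At least 100 counts left 2 lower death receptor genes and 0 higher inflammasome genes, and no filter gave 2 higher genes among the other caspases and inhibitors and turned their median from -0.58 to 0.56, through genes with at most 3 counts. Without replicates, depth limits BCL2, BCL2A1, BCL2L10, BIK and CASP1. DIABLO is limited by the overlap of its 2 rows as well as by few counts.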

Other observations

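Proteins of the outer mitochondrial membrane and partners of BCL2 were not among the members. Of 22 such genes tested, 3 were higher past a log2 fold change of 1 and none was lower, with a median of 0.33. That is 13.6% higher and 0% lower, beside 10.2% and 16.5% of all tested genes. BNIP3, a hypoxia-responsive mitophagy receptor, went from 2117 to 5527 counts (log2 fold change 1.59, 95% interval 1.52 to 1.67), its relative BNIP3L from 783 to 1940 (1.52), and VDAC1, the main channel of that membrane, from 3137 to 7393 (1.45). At the other end were BNIPL with 23 and 11 counts (-0.80), BAG5 from 1661 to 1185 (-0.28) and BAG3 from 1066 to 765 (-0.27). BNIP3 and BNIP3L were higher where BCL2L13, also a mitophagy receptor, was lower.

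Of 12 caspase substrates and genes of cell dismantling, 1 was higher past 1 and none was lower, with a median of 0.32. That is 8.33% higher and 0% lower, beside 10.2% and 16.5% of all tested genes. LMNB1, a lamin of the nuclear envelope, went from 684 to 2331 counts (log2 fold change 1.98, 95% interval 1.86 to 2.10), PARP1, a DNA repair enzyme cut during apoptosis, from 3872 to 6420 (0.94), and AIFM1 from 2223 to 3665 (0.93). DNASE2 went from 2436 to 1213 (-0.80), DFFA, the inhibitor of the caspase-activated nuclease, from 2888 to 1898 (-0.40), and DFFB, the nuclease itself, from 312 to 224 (-0.27).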
